A study of Mus musculus with 6 samples.

Results

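The simple epithelial keratins described here are Krt7, Krt8, Krt18, Krt19, Krt20 and Krt23, taken by symbol from the gene column of the 6 count lists. They are 6 of 24393 listed genes and 6 of the 52 keratin genes among them. All 6 passed the filter on low counts, which kept 13600 genes, so no member was lost before the test. Keratins build intermediate filaments from obligate pairs of an acidic type I chain (Krt18, Krt19, Krt20, Krt23) and a basic type II chain (Krt7, Krt8). Krt8 and Krt18 form the first keratin pair of the embryo and the basic pair of single-layered epithelia such as the gut, whereas Krt7, Krt19, Krt20 and Krt23 are added in particular ducts, glands and surface cells. Krt20 is best known from the differentiated intestinal surface, and Krt19 from ducts and the simple epithelia of the gastrointestinal tract.

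The comparison asks how levels of these keratins in differentiated mouse embryonic stem cells differ with and without an induced HOXA13. Both groups, CONTROL and HOXA13 with 3 libraries each, were KH2 cells (strain label C57/BL/6), a line with a docking site for doxycycline-inducible genes, and the HOXA13 line received the human gene with a FLAG tag. Both were differentiated toward definitive endoderm on M15 cells, which are feeder cells of mesodermal origin, and 1 protocol text covers both groups. It gives doxycycline at 1.25 µg/ml from day 4, a sort of cells carrying CXCR4 and E-cadherin on day 6, and 1 further day of culture with doxycycline. The study's methods call the replicates biological and describe targeted clones isolated under hygromycin, and whether each HOXA13 replicate is a separate clone is not given in the sources used here. Whether CONTROL cells carry an empty construct is likewise not given there. The p-values measure the spread between these libraries.

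The libraries held 12279884 to 17331638 counts, and a floor of 3 counts equals 0.176 to 0.240 CPM (normalised counts scaled to the effective library size), which covers counting error only. The row under the human identifier ENSG00000106031 had 0 counts in every CONTROL library and 2497, 7666 and 6572 counts in HOXA13 replicates 1, 2 and 3, while the mouse gene Hoxa13 had at most 10 counts in any library. Of 11 listed markers of definitive endoderm, 9 were tested, 4 with positive and 5 with negative log2 fold changes (median -0.02). EdgeR called 0, with 1 at an unadjusted p under 0.05 and HOXA13 lower (beside 6.02% of all tested genes), whereas DESeq2 called 1 lower (beside 1.94%), limma voom 2 lower (beside 6.34%) and edgeR without CONTROL replicate 2 also 2 lower (beside 6.32%). Sox17 was at 0.975 to 4.84 CPM, Foxa2 at 1.76 to 5.04 CPM and Cer1 at 0 counts over the 6 libraries. Eomes stood at 89, 49 and 110.8 CPM in CONTROL replicates 1, 2 and 3 beside 24.4, 41.9 and 33 CPM in HOXA13, and Cxcr4, whose product was used in the sort, at 4.11, 5.04 and 2.25 beside 11.3, 5.62 and 4.12 CPM. The 10 listed epithelial markers summed to 579, 3607 and 1744 CPM in CONTROL replicates 1, 2 and 3, against 4962, 4306 and 4854 CPM in the HOXA13 libraries. The 12 mesenchymal or feeder markers summed to 10011, 2671 and 8131 CPM in CONTROL, against 2191, 5653 and 5604 CPM in HOXA13. Most of the HOXA13 sums came from Fn1, a matrix protein gene, and the other 11 markers (a sum chosen after the data were seen) came to 6637, 638 and 4404 CPM, against 193.5, 1022 and 628 CPM. CONTROL replicate 2 thus stood apart from the other CONTROL libraries, and its counts differed less from HOXA13 replicate 1 (chi-square per degree of freedom 40.8) than from CONTROL replicates 1 and 3 (136.5 and 106.0). In bulk RNA, fewer cells of a type and less RNA per cell cannot be told apart.

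Every one of the 6 simple keratins had a higher mean in the HOXA13 group, but none passed the test across all genes. Krt19, Krt20 and Krt8 were higher in each HOXA13 library than in any CONTROL library, by mean ratios of 2.60, 5.11 and 1.86, while the CONTROL and HOXA13 ranges of Krt7, Krt18 and Krt23 overlapped. With edgeR's quasi-likelihood test and Benjamini-Hochberg adjustment over 13600 genes, 0 of 6 members passed an adjusted p of 0.05, against 36 genes called higher in the whole table (0.265%). At an unadjusted p under 0.05 and with HOXA13 higher, 3 of 6 members passed, beside 8.05% of all tested genes, and the same 3 had groups that did not overlap, beside 11.5% of all tested genes. The median log2 fold change was 1.14 over the members and -0.01 over all tested genes. DESeq2 called 2 of 6 members higher (Krt19 and Krt20), beside 3.11% of its tested genes, and limma voom with quality weights called 3 higher (Krt8, Krt19 and Krt20), beside 9.11% of all tested genes. Without CONTROL replicate 2, edgeR also called those 3, beside 7.92% of its tested genes called higher, and without any other single library it called 0.

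**Figure D1:**
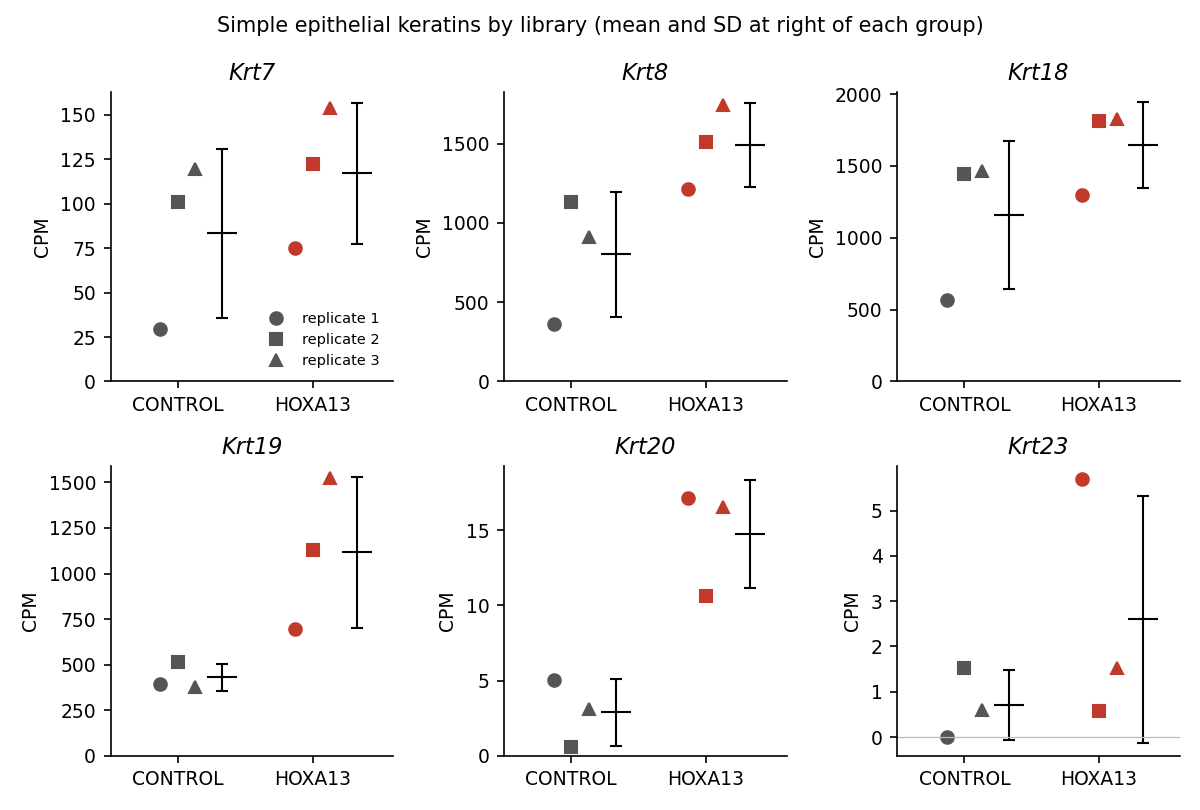
CPM (vertical axes, linear and separate for each gene) of the 6 simple keratins in the 3 CONTROL and 3 HOXA13 libraries. Circles, squares and triangles are replicates 1, 2 and 3, and the bar at the right of each group is the mean with its SD. The groups are apart for Krt8, Krt19 and Krt20 and overlap for Krt7, Krt18 and Krt23.

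Krt8 and Krt18, the basic pair, were the 2 most abundant keratins per exon length in both groups, and they lie side by side on chromosome 15. In mm9, Krt8 spans chr15:101827142-101834773 on the minus strand and Krt18 spans chr15:101858647-101862457 on the plus strand, with 23873 bases between them. The stretches from 250 bases before to 30 bases after the start of each gene are shown for this neighbouring pair. They are RefSeq sequences on GRCm38, another build than the counts, and only their letters are used. Capitals mark 2 motifs on either strand. One is the TATA box, searched as TATAAA. The other is a core rich in A and T that posterior HOX proteins prefer, searched as TTTAT, and the opposite strand of the TATA box contains these letters, so that the motifs can overlap. The Krt8 stretch is chr15:102004313-102004592 and the Krt18 stretch chr15:102027966-102028245 in GRCm38.
Krt8 (minus strand): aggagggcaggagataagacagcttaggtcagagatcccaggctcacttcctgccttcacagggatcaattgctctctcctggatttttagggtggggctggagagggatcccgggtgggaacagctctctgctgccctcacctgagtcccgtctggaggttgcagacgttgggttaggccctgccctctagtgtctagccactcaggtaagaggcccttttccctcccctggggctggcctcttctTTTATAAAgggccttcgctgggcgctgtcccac
Krt18 (plus strand): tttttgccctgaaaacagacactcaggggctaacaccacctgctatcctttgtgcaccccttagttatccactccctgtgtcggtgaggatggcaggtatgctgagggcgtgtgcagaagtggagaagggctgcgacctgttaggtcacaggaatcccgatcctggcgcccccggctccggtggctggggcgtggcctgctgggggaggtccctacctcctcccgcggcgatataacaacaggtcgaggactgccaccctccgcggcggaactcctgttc
The Krt8 stretch held TATAAA on both strands and TTTAT on both strands, all in 1 run at the annotated start, and the Krt18 stretch held neither. Of 32851 promoters in the table, 13.1% held TATAAA and 38.9% held TTTAT within the same 280 bases.

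Krt8 stood at 365, 1134 and 909 CPM in CONTROL replicates 1, 2 and 3, against 1215, 1509 and 1746 CPM in the HOXA13 libraries. The lowest HOXA13 library was 1.07 times the highest CONTROL library, a gap far smaller than the spread within CONTROL, where the highest library was 3.11 times the lowest. The log2 fold change was 0.89 (SE 0.377, 95% interval 0.02 to 1.76, n = 3 per group, edgeR adjusted p = 0.342). It was 1.21 without CONTROL replicate 2 (adjusted p = 0.049) and 0.52 without CONTROL replicate 1 (adjusted p = 0.523), and adjusted p-values over its 15 alternatives ran from 0.0207 to 0.743.

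Krt18, the type I partner of Krt8, stood at 564, 1443 and 1468 CPM in CONTROL, against 1299, 1814 and 1823 CPM in HOXA13. HOXA13 replicate 1 lay below CONTROL replicates 2 and 3, so the groups overlapped. The log2 fold change was 0.51 (SE 0.351, 95% interval -0.30 to 1.32, edgeR adjusted p = 0.586). Leaving out each library in turn gave 0.16 (without CONTROL replicate 1, the library with the lowest Krt18) to 0.70 (without CONTROL replicate 3). The interval holds both no change and a change of more than 2-fold.

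Reads of Krt8 are harder to place than those of the other members. Of the 1731 distinct 75-base stretches of its transcript, 726 (41.9%) also occur letter for letter on chromosome 7, against 1 of 7105 for Krt7 and 0 for Krt18, Krt19, Krt20 and Krt23. That copy, chr7:24142113-24143830 in mm9, lies inside the gene Nlrp4e, has no introns, and matches 1697 of the 1717 aligned bases of the 9 joined Krt8 exons (98.8%). The first stretch in which Krt8 and the copy differ at a single inner position is shown, with that base in capitals, from chr15:101834438-101834512 (minus strand) and chr7:24142302-24142376 (plus strand).
Krt8 exon: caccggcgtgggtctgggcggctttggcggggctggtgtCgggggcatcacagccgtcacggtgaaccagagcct
chromosome 7 copy: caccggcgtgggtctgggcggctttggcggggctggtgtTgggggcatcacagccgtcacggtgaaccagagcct
The difference is C40T, counted from 1 at the 5′ end, with the Krt8 base first. Nlrp4e had 0 counts in all 6 libraries. How reads with several alignments were counted is not given in the sources used here, so the level of Krt8 may be understated, and its part in the comparison was not tested.

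Krt19, a type I keratin that lacks most of the tail domain, showed the most even CONTROL group of the 6 members. It lies at chr11:100002124-100009979 on the minus strand in mm9. Its CPM was 393, 516 and 380 in CONTROL and 695, 1131 and 1523 in HOXA13, so that the lowest HOXA13 library was 1.35 times the highest CONTROL library. The means were 429 ± 75.1 and 1116 ± 414 (SD, n = 3 per group). The log2 fold change was 1.38 (SE 0.288, 95% interval 0.71 to 2.04, edgeR unadjusted p = 0.00137, adjusted p = 0.102). Adjusted p was 0.000402 in DESeq2, 0.00206 in limma voom, 0.0455 in edgeR with no filter and 0.0113 in edgeR without CONTROL replicate 2, within a range of 0.000402 to 0.496 over 15 alternatives. The study named Krt19 and Krt20 from these libraries, so their direction is no independent evidence.

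Krt20 was far less abundant and had the largest mean ratio. It lies at chr11:99289717-99299464 on the minus strand in mm9. The libraries held 71, 7 and 41 Krt20 counts in CONTROL and 223, 181 and 273 in HOXA13, or 5.04, 0.560 and 3.08 CPM against 17.1, 10.6 and 16.6 CPM. The lowest HOXA13 library was 2.11 times the highest CONTROL library, the widest gap of the 6 keratins. CONTROL replicate 2, which had the highest epithelial marker sum of its group, had the lowest Krt20. The log2 fold change was 2.34 (SE 0.686, 95% interval 0.76 to 3.92, edgeR adjusted p = 0.183). It was 1.85 without CONTROL replicate 2 (adjusted p = 0.0202) and 2.99 without CONTROL replicate 1 (adjusted p = 0.243), and DESeq2 gave an adjusted p of 0.0147, within a range of 0.0147 to 0.575 over 15 alternatives. The stretch around its start, chr11:99438124-99438403 in GRCm38, is shown, with the same capitals, because it alone of the 5 matched members held TTTAT far upstream of the start.
Krt20 (minus strand): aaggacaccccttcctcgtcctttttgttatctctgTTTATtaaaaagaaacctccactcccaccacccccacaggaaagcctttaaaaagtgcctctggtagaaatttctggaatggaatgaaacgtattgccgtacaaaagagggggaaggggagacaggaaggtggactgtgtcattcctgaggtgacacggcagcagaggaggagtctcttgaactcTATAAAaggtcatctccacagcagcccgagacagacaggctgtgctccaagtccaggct
The table matched 5 of 6 members, all but Krt19. The Krt20 stretch held TATAAA once and TTTAT at 2 places, of which 1 overlaps the TATA box, while Krt7 and Krt23 held TTTAT once each and no TATAAA. Krt7 alone held the GC box GGGCGG, at 4 places on either strand, and 34.7% of all promoters hold it. A match is a description of letters and no binding site.

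Krt7, the second type II chain, was at 29.5, 101.1 and 119.6 CPM in CONTROL, against 75.3, 122.1 and 153.8 CPM in HOXA13. Its range in CONTROL, with the highest library at 4.05 times the lowest, was wider than in HOXA13, at 2.04 times. The log2 fold change was 0.49 (SE 0.480, 95% interval -0.62 to 1.60, edgeR adjusted p = 0.725). Leaving out each library in turn gave 0.07 (without CONTROL replicate 1) to 0.83 (without CONTROL replicate 3), with 0.22 without HOXA13 replicate 3. Krt23, a type I keratin at the edge of detection, had 0, 19 and 8 counts in CONTROL and 74, 10 and 25 in HOXA13. Its highest value came from HOXA13 replicate 1 alone, the groups overlapped, and the log2 fold change of 1.87 had an interval from -1.39 to 5.13 (edgeR adjusted p = 0.630). It was 3.06 without CONTROL replicate 2, 1.25 without CONTROL replicate 1 and 0.56 without HOXA13 replicate 1. Krt7 lies at chr15:101241474-101260744 on the plus strand and Krt23 at chr11:99339288-99354451 on the minus strand in mm9, the latter 39823 bases from Krt20.

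**Figure D2:**
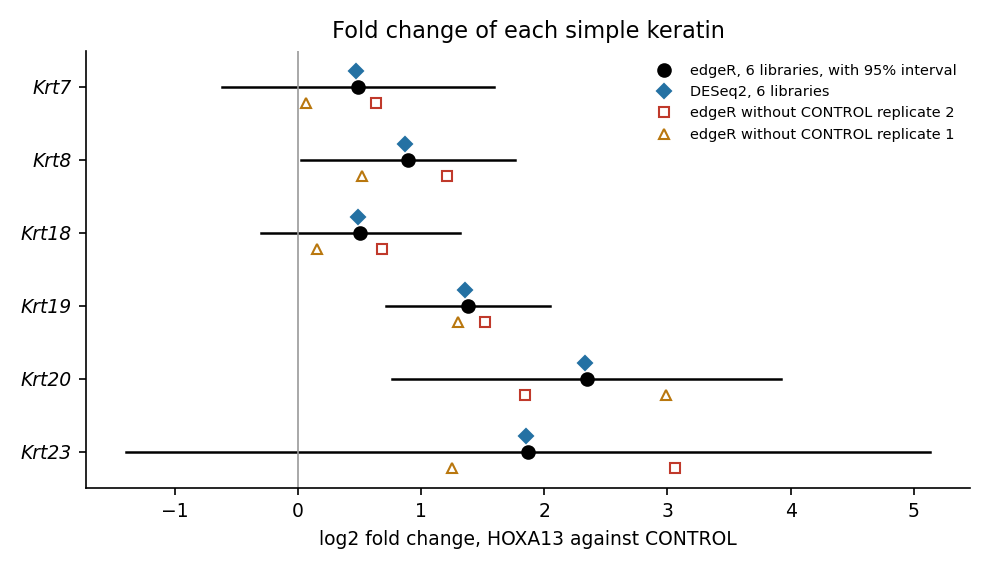
Log2 fold change of HOXA13 against CONTROL (horizontal axis) for each simple keratin. Black circles with lines are edgeR with its 95% interval over 6 libraries, diamonds are DESeq2, and open squares and triangles are edgeR without CONTROL replicates 2 and 1. All points lie above 0, and the intervals of Krt8, Krt19 and Krt20 do not reach 0.

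The direction was higher in HOXA13 under each of the 15 alternatives for Krt7, Krt8, Krt18, Krt19 and Krt20 and each of the 14 that kept Krt23. Chromosome 11, which carries Krt19, Krt20 and Krt23, had a median deviation of 0.38 on the log2 scale in CONTROL replicate 1, whereas the other libraries lay between -0.12 and -0.03. With each library's chromosome median taken as an offset, the log2 fold change of Krt19 was 1.48 and that of Krt20 was 2.59. The CPM, shares and ratios given here carry no such offset, so those of Krt19, Krt20 and Krt23 keep the shift of CONTROL replicate 1. On chromosome 15, the library medians lay between -0.08 and 0.05.

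Per kilobase of exon, the order of mean levels was Krt18, Krt8, Krt19, Krt7, Krt20 and Krt23 in both groups. The level of Krt8 may be understated, as described above, so its place in this order is uncertain. The CONTROL means were 827 ± 368, 445 ± 219 and 231 ± 40.5 CPM per kb (SD, n = 3) for Krt18, Krt8 and Krt19, and the HOXA13 means were 1175 ± 214, 825 ± 148 and 602 ± 223. Neighbours among these 3 in the order differed by less than the sum of their SDs between libraries in both groups. Compared within each library as counted, Krt18 was above Krt8 in every one. Krt8 was above Krt19 in all but CONTROL replicate 1. Krt7 at 11.8 and 16.6, Krt20 at 1.5 and 7.66, and Krt23 at 0.451 and 1.66 CPM per kb followed, and Krt20 and Krt23 differed by less than the sum of their SDs (1.16 and 0.489) in CONTROL. Krt7 has long annotated transcripts, and over its coding length it stood at 60.8 and 85.4 CPM per kb without a change of rank.

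Within the pool of the 6 keratins, Krt18 took a smaller part in HOXA13 than in CONTROL. Its share of the summed level per kb was 48.9, 52.8 and 59.0% in CONTROL, against 46.4, 46.9 and 41.7% in HOXA13. The groups did not overlap, whereas those of every other member's share did. No share was tested, and with n = 3 per group a two-sided exact permutation test cannot give a p under 0.1. All shares here take Krt8 as counted, and an understated Krt8 would make the other shares too high. The share of Krt8 was 28.4 ± 3.81% and 31.6 ± 1.81%, and that of Krt19 was 17.2 ± 7.52% and 22.4 ± 3.79% (SD, n = 3 per group). For both, the difference was smaller than the SD within CONTROL. CONTROL replicate 2 had the highest Krt8 share of its group, 32.2%, and the other 2 CONTROL libraries, at 24.6 and 28.4%, lay below the lowest HOXA13 share of 30.2%.

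The ratio of Krt8 to Krt18 compares both chains within a library and does not depend on its total count. On the log2 scale per exon length it was -0.99, -0.71 and -1.06 in CONTROL and -0.46, -0.63 and -0.43 in HOXA13, so every HOXA13 library had relatively more Krt8. The difference was 0.41, or 1.33-fold, with a two-sided exact permutation p of 0.1, the smallest that 3 against 3 libraries allow. The ratio of Krt7 to Krt8 differed by -0.37 (exact permutation p = 0.3) and the ratio of summed type I to summed type II chains by -0.22 (exact permutation p = 0.3), both with overlapping groups. Without CONTROL replicate 2 the type I to type II difference was -0.35 and the groups were apart, and without CONTROL replicate 1 it was -0.08. The Krt7 to Krt8 difference was -0.16 without CONTROL replicate 3, -0.22 without HOXA13 replicate 1 and -0.51 without CONTROL replicate 1. Over the 6 ratios computed, 3 of them chosen after the values were seen, the smallest Benjamini-Hochberg adjusted p of these permutation tests was 0.36. The 3 added ratios had overlapping groups, and differed by 2.16 for Krt20 to Krt18 (exact permutation p = 0.2), 0.70 for Krt19 to Krt18 (p = 0.3) and 0.29 for Krt19 to Krt8 (p = 0.6). Each sets a gene of chromosome 11 against one of chromosome 15, with no chromosome offset. The median deviation of chromosome 11 was 0.38 in CONTROL replicate 1, and its part in the overlap was not tested. These differences moved with single libraries. Krt20 to Krt18 was 1.03 without CONTROL replicate 2 and 3.24 without CONTROL replicate 1, and Krt19 to Krt18 was 0.39 without CONTROL replicate 3 and 1.1 without CONTROL replicate 1. Krt19 to Krt8 was 0.04 without CONTROL replicate 3, 0.10 without CONTROL replicate 2 and 0.73 without CONTROL replicate 1, and 0.46 and 0.15 without HOXA13 replicates 1 and 3.

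**Figure D3:**
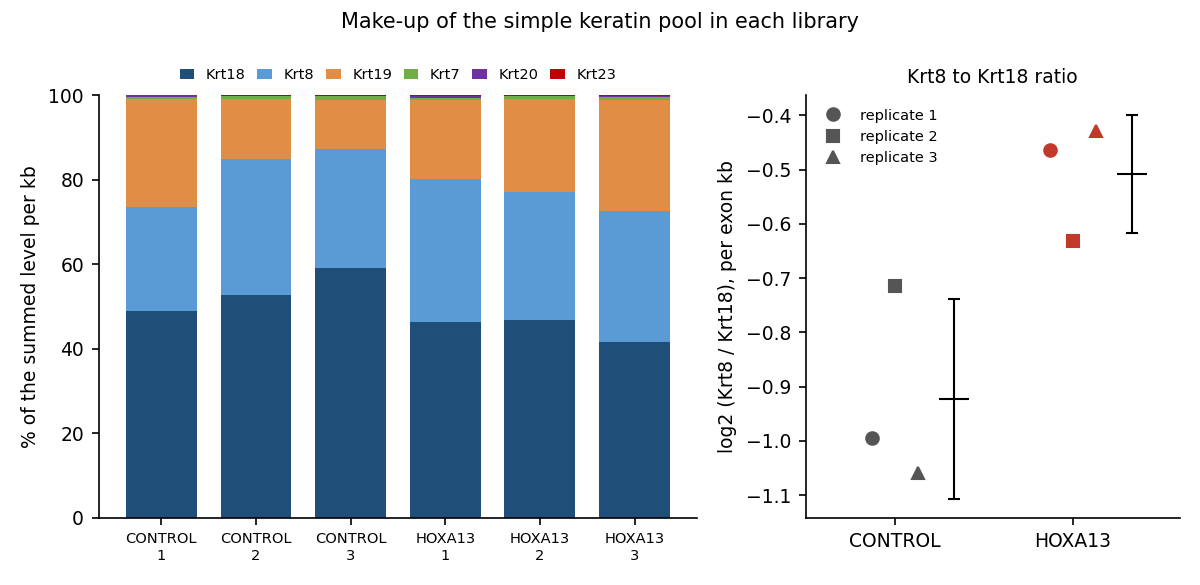
Left, share of each keratin (%) in the summed CPM per exon kb of the 6 members, as a stacked bar for each library. Right, log2 ratio of Krt8 to Krt18 per exon kb by group, with replicates as circles, squares and triangles and the mean with its SD. The Krt18 share is 48.9% or more in CONTROL and 46.9% or less in HOXA13, and the ratio is higher in each HOXA13 library.

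The 6 members together made up 0.140, 0.325 and 0.285% of all counts in the CONTROL libraries and 0.330, 0.452 and 0.512% in the HOXA13 libraries (exact permutation p = 0.1, the smallest possible). CONTROL replicate 2 and HOXA13 replicate 1 were nearly level on this measure. Of all keratin counts, the members took 98.6 to 99.3% in CONTROL and 87.9 to 96.0% in HOXA13, with no overlap (exact permutation p = 0.1). Simple keratins thus remained most of the keratin RNA in all 6 libraries while other keratins took a larger part in HOXA13.

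Across the 6 libraries, Krt7 and Krt18 were the members most alike, and the order of the other pairs differed between measures of likeness. As a description over 6 libraries that include both groups, Pearson's r of log2 CPM was 0.98 for Krt7 with Krt18 (Spearman's rho 1), 0.96 for Krt8 with Krt18 (rho 0.77) and 0.91 for Krt7 with Krt8 (rho 0.77). It was 0.78 for Krt8 with Krt19 (rho 0.94), 0.65 for Krt18 with Krt19 (rho 0.60) and 0.14 for Krt18 with Krt20 (rho 0.14). For Krt20 it was 0.08 with Krt7 (rho 0.14), 0.28 with Krt8 (rho 0.60) and 0.62 with Krt19 (rho 0.66). For Krt23, the member with the fewest counts, it was 0.55 with Krt7 and 0.64 with Krt18 (rho 0.0286 for both), 0.74 with Krt8 (rho 0.37), 0.40 with Krt19 and 0.21 with Krt20 (rho 0.26 for both). By Pearson's r the pairs of Krt20 with Krt7 and Krt18 were thus lowest, and by Spearman's rho those of Krt23 with Krt7 and Krt18. Among 8449 other genes whose mean reached 16 CPM, those most like Krt8 were Dppa2, Itgb4, Rassf7, Unc13b and Atg9b, with r from 0.99 to 1.00 over 6 libraries. Dppa2, the first of them, had means of 17.6 and 33.6 CPM in CONTROL and HOXA13. Itgb4, an integrin chain of the hemidesmosome, had means of 67.1 and 159.2 CPM. Those most like Krt19 were Bmp7, Mark2, Eml3, Zmym5 and Cmas, with r from 0.99 to 1.00. Bmp7, a secreted signalling protein, had means of 9.81 and 47.1 CPM (log2 fold change 2.26, edgeR adjusted p = 0.0904), and Mark2 had 104.3 and 117.6 CPM. Both lists hold the highest of 8449 genes over 6 libraries, so r near 1 can arise from the choice alone.

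Levels of epithelial and mesenchymal genes differed widely between libraries and are given beside the keratins. Cdh1, the gene of E-cadherin used in the sort, stood at 192, 1292 and 702 CPM in CONTROL, against 1732, 1690 and 1893 CPM in HOXA13 (edgeR adjusted p = 0.351). Epcam stood at 18.7, 391.9 and 75 CPM in CONTROL, against 413.1, 239.9 and 268.6 CPM in HOXA13, with overlapping groups. Of the 10 epithelial markers, Cdh1 and Epcam among them, all had positive log2 fold changes (median 1.31), 0 were called by edgeR with 8 at an unadjusted p under 0.05 (beside 8.05% of all tested genes with HOXA13 higher), and 8 were higher in each HOXA13 library than in CONTROL (80% beside 11.5% of all tested genes). DESeq2 called 2 of them higher (beside 3.11%), and limma voom (beside 9.11%) and edgeR without CONTROL replicate 2 (beside 7.92%) called all 10 higher. Vim, the intermediate filament gene of mesenchymal cells, stood at 4351, 548 and 3576 CPM in CONTROL, against 155, 722 and 481 CPM in HOXA13, and Col1a1, a collagen gene beside which KH2 cells carry their docking site, at 1163, 18.6 and 295 against 1.38, 117.7 and 23.2 CPM. Of the 12 mesenchymal or feeder markers, 10 had negative and 2 positive log2 fold changes (median -1.55), 0 were called by edgeR (lowest adjusted p = 0.186) with 5 at an unadjusted p under 0.05, all with HOXA13 lower (beside 6.02% of all tested genes), and 0 were lower in each HOXA13 library than in CONTROL (beside 8.52%). DESeq2 called 0 of the 12, limma voom 4 lower (beside 6.34%) and edgeR without CONTROL replicate 2 called 6 lower (beside 6.32%). The 2 with positive values were Fn1, with means of 3045 and 3868 CPM, and Thy1, at 1.56, 3.2 and 3.3 CPM in CONTROL, against 3.84, 8.03 and 4.61 CPM in HOXA13, the 1 marker of this list that was higher in each HOXA13 library (8.33% beside 11.5% of all tested genes). CONTROL replicate 1 had the lowest Cdh1 and Epcam of all 6 libraries, and also the lowest Krt7, Krt8, Krt18 and Krt23, but not the lowest Krt19 or Krt20. For Krt19 the margin was small, at 393 CPM beside 380 CPM in CONTROL replicate 3. These CPM carry no chromosome offset, and the median deviation of chromosome 11 was 0.38 in CONTROL replicate 1. The part of these cell type markers in the keratin differences was not tested.

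Divided by Cdh1 within each library, none of the 5 members computed was higher in all 3 HOXA13 libraries than in CONTROL. Krt23 was left out because a CONTROL library has 0 counts. The log2 ratio of Krt18 to Cdh1 was 1.55, 0.16 and 1.06 in CONTROL and -0.42, 0.10 and -0.05 in HOXA13, lower in every HOXA13 library (difference -1.05, exact permutation p = 0.1, the smallest possible). The difference was -0.63 for Krt8 (exact permutation p = 0.3), -1 for Krt7 (p = 0.2), -0.34 for Krt19 (p = 0.9) and 1.15 for Krt20 (p = 0.7), each with overlapping groups. For Krt7 and Krt8 that overlap came from CONTROL replicate 2 alone, and without it HOXA13 was lower in each library. Each library was left out in turn, a setting chosen after the data were seen. The difference relative to Cdh1 then ran from -1.43 to -0.73 for Krt18, from -1.35 to -0.73 for Krt7, from -0.91 to -0.36 for Krt8, from -0.81 to 0.37 for Krt19 and from -0.39 to 2.57 for Krt20. The lower end came without CONTROL replicate 2 for each member and the upper end without CONTROL replicate 1, or for Krt7 without HOXA13 replicate 1, so the sign for Krt19 and Krt20 depended on single CONTROL libraries. Krt20 to Cdh1 ranged from -11.2 to -5.25 in CONTROL and only from -7.32 to -6.66 in HOXA13. Divided by Epcam, the groups of these 5 members overlapped over all 6 libraries, with differences of -1.25 for Krt18, -1.2 for Krt7, -0.84 for Krt8, -0.545 for Krt19 and 0.95 for Krt20. With each library left out in turn they ran from -2.16 to -0.64, from -2.08 to -0.68, from -1.64 to -0.26, from -1.53 to 0.46 and from -1.12 to 2.66, with both ends from the same libraries as for Cdh1. Without CONTROL replicate 2, Krt7, Krt8 and Krt18 were lower relative to Epcam in each HOXA13 library than in the other CONTROL libraries. Over the 10 ratios to both genes in 6 libraries, the smallest adjusted p was 0.6.

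**Figure D4:**
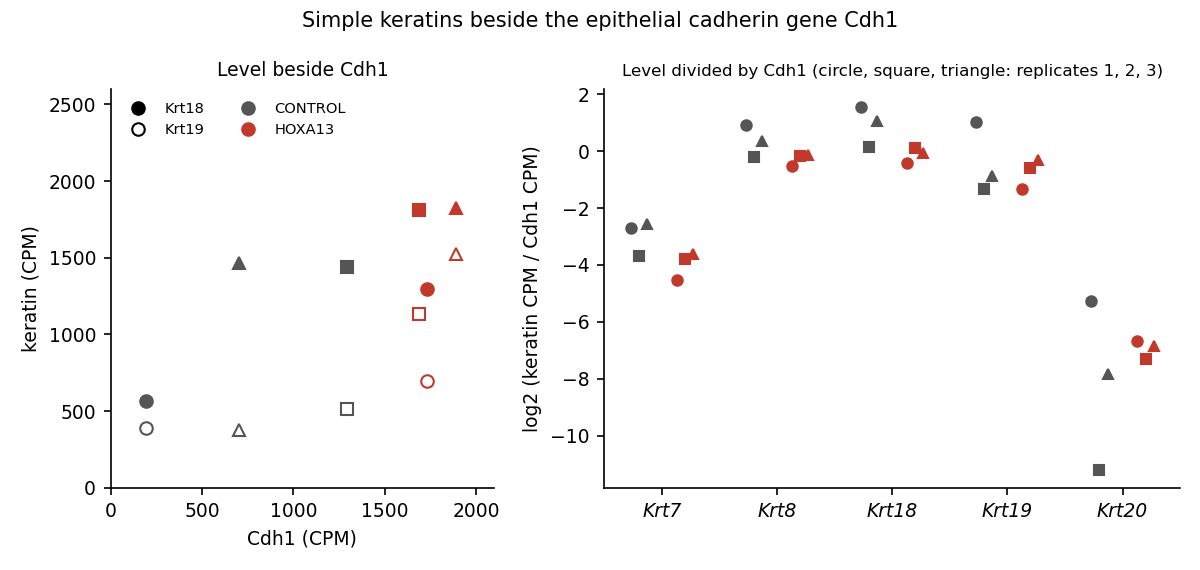
Left, CPM of Krt18 (filled) and Krt19 (open) against CPM of Cdh1 in each library, on linear axes. Right, log2 of each keratin's CPM over that of Cdh1 for 5 members, grey for CONTROL and red for HOXA13, with circles, squares and triangles for replicates 1, 2 and 3. Krt18 relative to Cdh1 is lower in all 3 HOXA13 libraries, and the groups overlap for the other members, for Krt7 and Krt8 through CONTROL replicate 2 (grey squares).

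Other sources of simple keratins were examined through marker lists. Trophoblast, which is rich in Krt7, Krt8 and Krt18, was represented by 8 markers that summed to 104 to 209 CPM in CONTROL, against 176 to 224 CPM in HOXA13, with Prl3d1 at 0 in all libraries and Tpbpa at 0 in all CONTROL libraries and at most 0.424 CPM in HOXA13. Other markers of that list were present, with Cdx2 means of 47 and 78.7 CPM in CONTROL and HOXA13, Tfap2c of 19.7 and 47.4, Ascl2 of 3.9 and 10.1, and Hand1 of 33.4 and 14.4. None of the 6 tested passed in edgeR, with a lowest adjusted p of 0.267, that of Hand1, and with 1 at an unadjusted p under 0.05 and HOXA13 lower (beside 6.02% of all tested genes). DESeq2 called 0, limma voom called 1 higher and 1 lower (beside 9.11 and 6.34%), and edgeR without CONTROL replicate 2 called 2 higher and 0 lower (beside 7.92 and 6.32%). Both Tfap2c and Ascl2 were higher in each HOXA13 library than in CONTROL (2 of 6 tested, beside 11.5% of all tested genes), and Hand1 was lower in each (1 of 6, beside 8.52%). The 6 visceral endoderm markers summed to 10.6 to 13.2 CPM in CONTROL, against 6.24 to 11.5 CPM in HOXA13, with Afp and Ttr at 0 throughout. The 6 markers of intermediate mesoderm, the source of M15 cells, summed to 9.65 to 12 CPM in CONTROL, against 3.30 to 7.79 CPM in HOXA13. All 3 visceral endoderm and all 4 intermediate mesoderm markers tested had negative log2 fold changes, with 1 of each list lower in every HOXA13 library (beside 8.52%). Of either list, 0 were called by edgeR over all libraries or without CONTROL replicate 2, by DESeq2 or by limma voom, and 0 had an unadjusted edgeR p under 0.05. The 8 pluripotency markers summed to 39.6, 1047 and 80.7 CPM in CONTROL, against 403, 166 and 196 CPM in HOXA13, highest in CONTROL replicate 2. Of these 8, 2 had positive and 6 negative log2 fold changes (median -0.72), and edgeR called 0 with 0 at an unadjusted p under 0.05. DESeq2 called 0, limma voom 2 higher (beside 9.11%) and edgeR without CONTROL replicate 2 called 4 higher (beside 7.92%). The part of these cell types in the keratin levels was not tested.

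The genes directly beside the members gave mixed values. Krt83, a hair keratin gene 1176 bases from Krt7, had 0 counts in each CONTROL library and 71, 432 and 1457 counts in HOXA13 (edgeR adjusted p = 0.0826), whereas Krt7 itself overlapped between groups. Krt15, a basal keratin gene 4860 bases from Krt19, had 26, 137 and 17 counts in CONTROL and 262, 754 and 1533 counts in HOXA13 (log2 fold change 3.49, SE 0.891, edgeR adjusted p = 0.146). On its other side, Krt9 had 0 counts in all 6 libraries. Eif4b, next to Krt18, had a log2 fold change of 0.16 (adjusted p = 0.802), and Krt80, next to Krt7, had 0.20 (adjusted p = 0.971). Krt78, Krt12 and Krt39, beside Krt8, Krt20 and Krt23, had at most 14 counts in any library and were not tested.

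Genes that anchor or organise keratin filaments mostly had positive log2 fold changes, and edgeR called none over all 6 libraries. Of 26 partner genes, 25 were tested, 19 had positive and 6 negative log2 fold changes, 0 were called by edgeR with 9 at an unadjusted p under 0.05, all with HOXA13 higher (beside 8.05% of all tested genes), and 10 had higher values in every HOXA13 library than in any CONTROL library, or 40.0% beside 11.5% of all tested genes. DESeq2 called 5 higher (beside 3.11%), and limma voom called 10 higher and 1 lower (beside 9.11 and 6.34%). The median log2 fold change was 0.37 (all genes -0.01). The 3 of lowest unadjusted p were Fam83h, which recruits casein kinase 1 to keratin filaments, Evpl, a plakin of the cell envelope, and Dnajb6, a chaperone that binds Krt18. Fam83h was at 96.7, 133.5 and 159.3 CPM in CONTROL, against 257.3, 226.4 and 262.7 CPM in HOXA13 (log2 fold change 0.94, edgeR adjusted p = 0.104). Evpl had a log2 fold change of 1.56 (adjusted p = 0.126) and Dnajb6 of 0.78 (adjusted p = 0.156). Plec, the main plakin linker, had -0.18 (adjusted p = 0.802).

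Of 32 transcription factors listed as candidate keratin regulators, among them Trp63 of stratified epithelia and the general factors Sp1, Jun and Junb, 27 were tested, 21 had positive and 6 negative log2 fold changes, 0 were called by edgeR with 7 at an unadjusted p under 0.05, all with HOXA13 higher (beside 8.05%), and 9 did not overlap with HOXA13 higher (33.3% beside 11.5% of all tested genes). DESeq2 called 4 of the 28 it tested higher (beside 3.11%), limma voom 11 higher and 1 lower (beside 9.11 and 6.34%) and the edgeR 4 method 1 higher (beside 0.669%). The median was 0.49. Grhl1, a grainyhead factor of epithelial junction genes, was at 3.62, 13 and 5.02 CPM in CONTROL, against 42.7, 54.7 and 71.7 CPM in HOXA13 (log2 fold change 2.97, SE 0.490, edgeR adjusted p = 0.0619). Ets2, a factor tied to KRT18 control, was at 61.6, 85.2 and 88.7 against 138.7, 218.6 and 219.2 CPM (1.29, adjusted p = 0.0759), and Ovol1, a repressor of mesenchymal genes, had a log2 fold change of 2.05 (adjusted p = 0.111). Without CONTROL replicate 2, edgeR called 10 of these factors higher and 1 lower, and 7 of the partner genes higher and 1 lower, beside 7.92% of all tested genes called higher and 6.32% called lower in that fit.

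Other intermediate filament genes split almost evenly between directions. Of 16 other intermediate filament genes, 15 were tested, with 8 positive and 7 negative log2 fold changes and a median of 0.01. EdgeR called 0, with 3 at an unadjusted p under 0.05, all with HOXA13 lower (beside 6.02% of all tested genes). DESeq2 called 0, limma voom called 2 higher and 3 lower (beside 9.11 and 6.34%), and edgeR without CONTROL replicate 2 called 3 higher and 2 lower (beside 7.92 and 6.32%). Vim had a log2 fold change of -2.64 (edgeR adjusted p = 0.186) with overlapping groups, since CONTROL replicate 2 lay below HOXA13 replicate 2, and the other 2 CONTROL libraries lay above all HOXA13 libraries. Prph and Nes, filament genes of neurons and progenitors, had -0.96 (adjusted p = 0.213) and -0.98 (adjusted p = 0.326). Of 22 stratified keratins, 21 were listed and 8 tested, all 8 with positive log2 fold changes, 0 called by edgeR with 2 at an unadjusted p under 0.05 (beside 8.05%), 2 without overlap (25% beside 11.5% of all tested genes) and a median of 0.81. DESeq2 called 1 of the 12 it tested higher (beside 3.11%), and limma voom 2 of the 8 higher (beside 9.11%). Without CONTROL replicate 2, 2 of the 10 then tested were called higher, beside 7.92% of all genes tested in that fit. These 8 passed a filter on low values, and 4 of the 21 were at 0 in every library. Untested genes went both ways, with Krt2 and Krt4 seen in CONTROL libraries only and Krt1 and Krt12 in HOXA13 libraries only. More of them were higher in HOXA13, since Krt5, Krt6a, Krt75, Krt76 and Krt78 also had higher means there. All of these untested means were at most 1.49 CPM. Besides Krt15, the lowest unadjusted p belonged to Krt17 (log2 fold change 1.85, adjusted p = 0.284) and Krt14 (1.15, adjusted p = 0.501), both basal or stress-related type I keratins. Krt14 was high in HOXA13 replicate 1 alone (17.8 CPM), and the other HOXA13 libraries, at 3.98 and 4.24 CPM, lay within the CONTROL range of 3.3 to 4.75 CPM. The stratified keratins summed to 18.0, 37.7 and 16.4 CPM in CONTROL, against 62.6, 78.9 and 128.4 CPM in HOXA13, levels well under those of Krt8, Krt18 or Krt19 alone.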

How the data were processed

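RNA was measured in 6 libraries (3 CONTROL, 3 HOXA13), grouped by sample title. The deposited values are raw counts per gene that the authors made from 75-base reads of stranded poly-A libraries, aligned to mm9 with TopHat2 and counted with HTSeq. The submitters' notes give TopHat2 2.0.14 and HTSeq 0.6.1p1, whereas the study's methods name another TopHat version, and which one made these counts is not settled here. The sources used here give neither the gene models nor how strand and multiply aligned reads were handled, so related keratins and antisense genes are uncertain.

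Counts were filtered with filterByExpr (minimum count 10, minimum total 15), scaled by the trimmed mean of M-values and compared with edgeR 4.0.16 (R 4.3.3) quasi-likelihood tests on the group alone, with Benjamini-Hochberg adjustment over all 13600 genes, and the code was tested on simulated data. DESeq2 1.42.0 and limma 3.58.1 were among the alternatives. Ratios used log2 of values per kb of exon (GENCODE M1 on mm9) after adding 0.5 counts and two-sided exact permutation tests. Ratios to Cdh1 and Epcam used CPM with no addition. The members and lists were chosen with earlier results of these data known. Named genes are all members, the genes past the threshold of each list or else the 3 of lowest unadjusted p, the 5 most correlated with Krt8 and with Krt19, the nearest neighbours, and Cdh1, Epcam, Vim and Col1a1. Further genes were named after their values were seen.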

Additional observations from a re-analysis of the deposited data

How the results depend on the processing

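The 6 members had higher means in HOXA13 under each alternative that gave them a value, and the median log2 fold change of the members lay between 0.86 and 1.42. The difference in the Krt8 to Krt18 ratio lay between 0.35 and 0.52. Another gene length cancels in this difference, so the length alternatives, of which coding length was chosen after the data were seen, could not move it. The counts of calls were less stable. Against 42 genes called over the whole table, no filter gave 163, a mean of at least 50 counts 9, DESeq2 722, limma voom 2101, the edgeR 4 method 106, a chromosome offset 1 and the replicate block 0 (with 1392 at an unadjusted p under 0.05). Leaving out 1 library gave 0 to 2006, the highest without CONTROL replicate 2 and at most 7 without any other, and it gave 0 to 3 simple keratins. Against 0 simple keratins called, no filter gave 1, DESeq2 2 and limma voom 3. Against 0 candidate regulators, no filter gave 2, DESeq2 4, limma voom 12, the edgeR 4 method 1 and leaving out 1 library 0 to 11. Against 0 partner genes, DESeq2 gave 5, limma voom 11 and leaving out 1 library 0 to 8. Against 0 other intermediate filament genes, limma voom gave 5 and leaving out 1 library 0 to 5. Against 0 stratified keratins, DESeq2 gave 1, limma voom 2 and leaving out 1 library 0 to 2. The cause of these shifts was not tested.

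Whether the replicate numbers pair the samples is not given in the sources used here. Deviations from the group means of same-numbered libraries correlated across genes at -0.21, -0.27 and 0.10, which shows no sign of pairing. With so few libraries per group, these correlations cannot exclude it. With the replicate block, adjusted p was 0.339 for Krt8, 0.24 for Krt19 and 0.248 for Krt20, and 0 members were called. A count of 0 to 19, as for Krt23 in CONTROL, limits what the depth can show.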
